A study of Sus scrofa with 12 samples.

Results

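The genes examined here were 42 genes of programmed cell death, namely the BCL2 family, caspases, the inhibitors of caspases, death receptors and their adaptors, and the genes that act beside them. They were taken by name from a fixed list and not by any measured value. RefSeq's annotation of the pig genome Sscrofa11.1 holds an mRNA for 39 of them, among 20666 genes with an mRNA in all, and BCL2L2, BIK and BIRC2 have none under these symbols. The m6A peaks of the 6 immunoprecipitated (IP) samples were assigned to a gene when at least 1 bp of the peak fell on one of its mRNA exons and the strands matched.

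The study asked how freezing changes m6A on the mRNAs of boar sperm. Ejaculates of 3 mature Duroc boars were divided into fresh sperm (Fs), put into liquid nitrogen at once and kept for RNA extraction, and frozen-thawed sperm (Fts), which were cooled to 17 °C, spun down, taken up in an extender of lactose and egg yolk, cooled to 4 °C, given 6% glycerol and frozen in straws. By the study's methods the fresh arm was therefore also frozen before extraction, without cryoprotectant, whereas the labels say that it went to extraction directly. RNA was broken into pieces of about 100 nucleotides, and an anti-m6A antibody selected the methylated pieces, so each group has 3 IP samples and 3 input libraries made before that selection. The labels number the samples of each group from 1 to 3 without tying a number to a boar.

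Apoptosis has a mitochondrial arm and a receptor arm. In the first, BH3-only proteins set free BAX and BAK1, which open the outer mitochondrial membrane unless BCL2 and its relatives hold them back, and the cytochrome c released assembles APAF1 and CASP9 into the apoptosome. In the second, ligands of FAS or TNFRSF1A gather adaptors and activate CASP8. Both arms end in executioner caspases and DNA fragmentation, and XIAP and the other inhibitor of apoptosis proteins restrain them. In sperm, which are almost silent in transcription, caspase activation and DNA breaks are known after cold stress. N6-methyladenosine (m6A) is a methyl group on adenosines inside mRNAs, placed mostly within the motif A or G, A or G, A, C and then A, C or T (RRACH), and read by proteins that act on mRNA decay and translation.

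Member regions that held a peak in all 3 samples of at least 1 group numbered 6, and a stretch of 29 bases is shown from 5 of them, since the results turn on these regions. Each stretch is centred on the GGACT nearest to the middle of the part that the samples share, cut to the exon, or, where that part holds no GGACT, on the nearest RRACH, and the capitals mark this motif. All are reference sequence of Sscrofa11.1 (susScr11), written 5′ to 3′ on the transcript strand, the strand searched. GGACT is 1 of the 12 forms of RRACH, and a match does not place a methylated base.
CARD6, exon 3 of 6, coding, chr16:25811922-25811950, + strand: cttaggagaagaGGACTatctagaatctt
BIRC3, exon 1 of 10, 5′UTR, chr9:33004505-33004533, + strand: aggttggagaagGAACTgctagaaagagg
BIRC6, exon 41 of 78, coding, chr3:107129987-107130015, − strand: agaatggatcacAAACAgttagtgtttca
PMAIP1, last exon, near the stop codon, chr1:161185149-161185177, − strand: ttgtgaatgaggAGACTcctttaaaatgg
BCL2, last exon, 3′UTR, chr1:158515376-158515404, + strand: ggcgtcatcctgGGACTgagcctgggcac
The part shared by all 6 samples on CARD6 exon 3 is 449 bp long and holds 2 GGACT, and the BCL2 part holds 1. Among all peak regions of a length within 10% of these, 39.98% and 31.1% hold at least 1 GGACT. Those regions were taken whole, neither reduced to a shared part nor cut to exons, so the measures are not quite alike. Cut to the exon like the CARD6 and BCL2 parts, the shared parts behind the other 3 sequences hold RRACH without GGACT. RRACH occurs in 89.0% to 98.8% of the whole regions of like length to each of the 5.

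The deposited peaks were called in each IP sample against its own input, and each carries a MACS score, 10 times −log10 of its p-value, by the column heading of the study's own table of these peaks, so that 20 stands for a p-value of 0.01 and 50 for 1e-05. The lowest score in the lists, 3.02, is then a p-value of 0.499, so the lists hold peaks with little support beside strong ones. A score grows with the number of reads as well as with enrichment, the peak files hold no read counts (the reads of each library, which the study gives and which differ between samples, were not used here), and a gene with no peak may be unmethylated or may have too few reads to call one. The lists held 8015 to 10378 peaks in the Fs samples and 9682 to 11982 in the Fts samples. Regions were shared more within a group than between groups, with Jaccard indices of 0.359 to 0.402 within and 0.170 to 0.198 between. Of 15 genes of sperm and late spermatids, 9 had a peak in some sample. Each Fs sample held a peak on 3 to 4 of them and each Fts sample on 3 to 5. PRM1, TNP1, ODF1, AKAP4, GAPDHS and TSSK6 had none. ACR had 2, 2 and 2 peaks in Fs and 0, 0 and 0 in Fts, and AKAP3 had 2, 1 and 3 and 0, 0 and 1. ZPBP had 0, 0 and 0 in Fs and 1, 2 and 2 in Fts, and ODF2 0, 0 and 0 and 3, 3 and 0. In Fts, LDHC had 0, 1 and 1 peaks, PGK2 0, 1 and 0 and TNP2 0, 0 and 1, and none of them had a peak in Fs. CATSPER1 had 1 peak, in Fs2, and SPACA1 had 1 in each of the 6 samples. Of 5 white blood cell genes, 3 had a peak in some sample, and each sample held a peak on 0 to 1. PTPRC had 0, 2 and 0 peaks in Fs and 0, 0 and 1 in Fts. ITGAM had 0, 0 and 2 in Fs and none in Fts, and CD3E none in Fs and 1, 1 and 0 in Fts. CD14 and CSF1R had none. Of 4 epithelial genes, the Fs samples held a peak on 0, 1 and 2 and the Fts samples on 2, 2 and 3. EPCAM had none, and KRT8 had 3, 4 and 2 peaks in Fts and 0 in each Fs sample. KRT18 had 0, 0 and 1 peaks in Fs and 2, 1 and 1 in Fts, and CDH1 0, 1 and 1 in Fs and 0, 0 and 1 in Fts. The study's methods treated the sperm with Triton X-100 to remove somatic cells, and the part of any that remained was not tested. In RNA of whole samples, fewer cells of a type and less RNA per cell cannot be told apart.

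Peaks lay on 25 of the 39 apoptosis genes in at least 1 sample, or 64.1%, beside 56.6% of all annotated genes. The median exonic length was 3285 bp for the apoptosis genes and 2988 bp for all genes. The genes without any peak were 14, namely the pore formers BAX and BOK, the BH3-only genes BID, BAD and BMF, the initiator caspase genes CASP9 and CASP10, the genes CYCS for cytochrome c, HTRA2, AIFM1 and ENDOG for proteins released by mitochondria, the adaptor and kinase genes FADD and RIPK1 of death receptors, and PARP1 for a DNA repair enzyme that caspases cut. Only CARD6 had a peak in all 6 samples, 1 of 39 genes, where 7.65% of all genes had one.

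**Figure D1:**
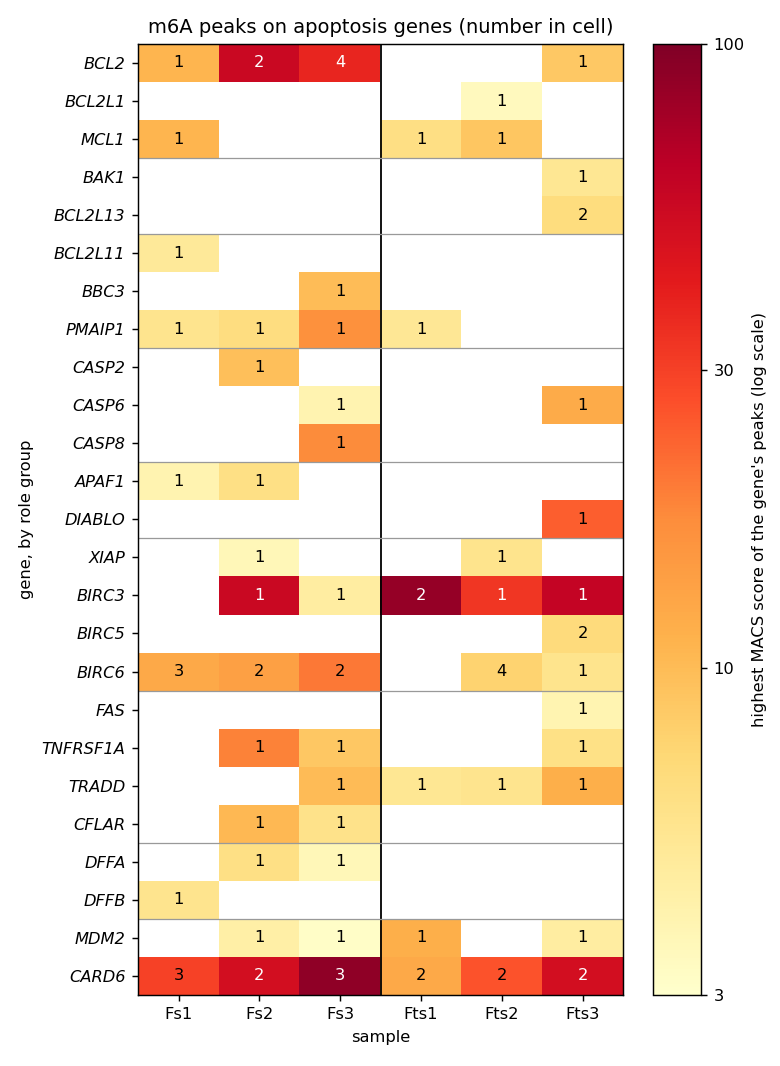
The 25 apoptosis genes with a peak (rows, by role group, separated by lines) in the 3 Fs and 3 Fts samples (columns). The number in a cell counts the peaks, the colour gives the highest MACS score on a log scale and white means no peak, so that CARD6 is filled in all 6 columns and BCL2 in the 3 Fs columns and Fts3.

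The number of apoptosis genes with a peak was 8, 12 and 13 in Fs1, Fs2 and Fs3 and 6, 7 and 13 in Fts1, Fts2 and Fts3. The means were 11.0 ± 2.65 and 8.67 ± 3.79 (SD, n = 3 each), and the groups overlapped, with Fts3 as high as the highest Fs sample. The share of all genes with a peak was 25.4% to 30.9% in Fs and 26.8% to 31.7% in Fts. The peaks themselves numbered 12, 15 and 19 in Fs and 8, 11 and 16 in Fts, with means of 15.3 ± 3.51 and 11.7 ± 4.04. Over all genes, peaks on mRNA exons numbered 8120 ± 1129 in Fs and 9844 ± 1190 in Fts, so the differences, −3.67 and 1724 peaks, lay in opposite directions, beside SDs of 3.51 to 4.04 and 1129 to 1190 peaks. The difference on apoptosis genes was −0.667 peaks with a score of 20 or more and −0.333 with 50 or more. Peaks that strong were few, with 16 of 81 at 20 or more, and means of 3 ± 1 in Fs and 2.33 ± 1.53 in Fts. As most peaks were weak in both groups, these values do not place the difference in weak peaks.

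**Figure D2:**
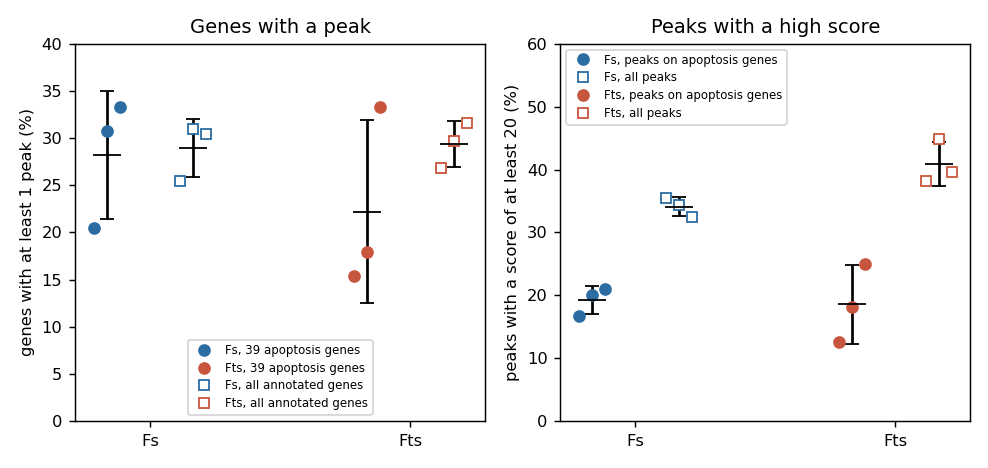
Left, the share of the 39 apoptosis genes (filled circles) and of all 20666 annotated genes (open squares) with at least 1 peak, in percent, by sample. Right, the share of their peaks with a score of at least 20, in percent. Points are samples, long dashes are means and bars are SD (n = 3), and the apoptosis genes lie below all peaks on the right in every sample.

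By gene, the Fts mean was the higher in 9 of the 39 genes (23.1%, beside 25.3% of all genes), the lower in 13 (33.3%, beside 24.4%) and the same in 3 that had a peak. The median difference was 0 in both sets. No apoptosis gene had more peaks in Fts than in Fs in all 3 same-numbered pairs, a pattern found in 6.11% of all genes, and 1, BCL2, had fewer in all 3, found in 3.89%. Among genes with a peak in some sample, these shares were 10.8% and 6.86%. For no gene of the list did the peak counts of the groups separate without overlap, which 5.09% of all genes did with more peaks in Fts and 3.03% with fewer. With 3 pairs the exact sign-flip test cannot give a two-sided p-value below 0.25, nor the exact permutation test of 3 against 3 samples one below 0.1, so no single gene could pass 0.05.

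The anti-death genes of the BCL2 family carried 8 peaks over the Fs samples and 4 over the Fts samples. By sample these were 2, 2 and 4 in Fs and 1, 2 and 1 in Fts, which overlap. Totals by role group, here and below, add up the samples of a group and were not set beside those of all genes. BCL2, whose protein guards the outer mitochondrial membrane, had 1, 2 and 4 peaks in Fs1, Fs2 and Fs3 and 0, 0 and 1 in Fts1, Fts2 and Fts3. Each Fts sample lay below the Fs sample of its number, but Fts3 equalled Fs1. Fs samples averaged 2.33 ± 1.53 peaks and Fts samples 0.333 ± 0.577, which differ by −2 (exact sign-flip test, two-sided p = 0.25, n = 3 pairs, and exact permutation test without pairs, p = 0.2). Counting only peaks that scored 20 or more, the difference was −0.667, and with 50 or more it was −0.333.

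The BCL2 peaks sat at both ends of the mRNA. A region of the 3′UTR on chromosome 1, from 158515088 to 158515704, from which the last sequence above comes, had scores of 10.8, 56.0 and 11.2 in Fs1, Fs2 and Fs3 and no peak in any Fts sample. A region of the 5′UTR, from 158337609 to 158338349, had a peak in Fs2 (score 11.5) and Fs3 (37.8). Fs3 also held a coding peak in exon 1 with a score of 4.21. The Fts3 peak lay elsewhere, from 158518150 to 158518562, mostly past the annotated end of the last exon, and had a score of 8.67 beside a peak of 6.14 in Fs3 at the same place. The 3′UTR region was the only part of BCL2 with a peak in all 3 Fs samples and no Fts sample, a pattern of 3.65% of all regions. Its Fs1 and Fs3 scores were below 20, so it did not show this pattern when a score of 20 was asked for.

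BCL2L1, the gene of BCL-XL, a relative of BCL2 with the same role, had 1 peak over the 6 samples. It lay in the coding sequence of exon 2 of 3 on chromosome 17, from 35413477 to 35414170, in Fts2 alone, with a score of 3.45, near the lowest in the lists. The counts were 0, 0 and 0 in Fs and 0, 1 and 0 in Fts, and they overlapped (exact sign-flip p = 1). MCL1, a short-lived member of the same branch, had a coding peak in exon 1 in Fs1 (10.7), Fts1 (6.28) and Fts2 (8.96). Its values, like those of all genes named from here other than CARD6, BIRC3, BIRC6 and DIABLO, were picked for naming after they had been seen.

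The pro-death members of the BCL2 family had no peak in Fs and 3 in Fts, all in Fts3. They were 1 on BAK1, which forms pores in the outer membrane (score 5.32), and 2 on BCL2L13 (4.99 and 6.56). The BH3-only genes, whose products sense stress and trigger the pore formers, carried 5 peaks in Fs and 1 in Fts. By sample these were 2, 1 and 2 in Fs and 1, 0 and 0 in Fts, which overlap. Of these, 4 lay on PMAIP1, the gene of NOXA, in a stretch around and after the stop codon on chromosome 1 from 161184852 to 161185294. Its scores were 5.56, 6.5 and 16.5 in Fs1, Fs2 and Fs3 and 5.19 in Fts1, with no peak in Fts2 or Fts3. BCL2L11, the gene of BIM, had a peak in Fs1 only (5.01) and BBC3, the gene of PUMA, in Fs3 only (10).

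**Figure D3:**
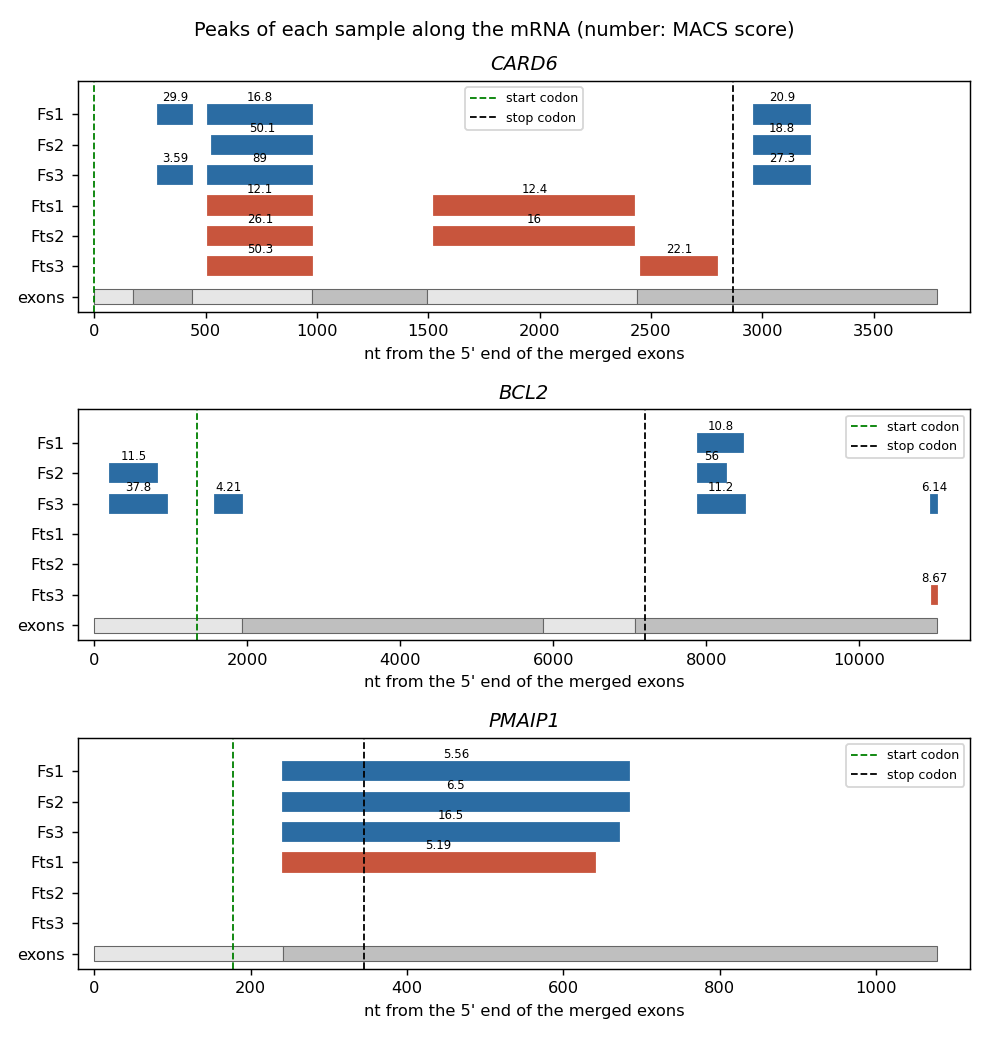
Peaks of each sample along the exons of CARD6, BCL2 and PMAIP1, with the distance in nucleotides from the 5′ end of the merged exons on the horizontal axis (Fs blue, Fts red, MACS score above each peak, dashed lines at the start and stop codons). The CARD6 exon 3 peak is present in all 6 samples and the 3′UTR peaks of CARD6 and BCL2 in the 3 Fs samples only.

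CARD6, which encodes a protein with a caspase recruitment domain, carried the most peaks of the list, 3, 2 and 3 in Fs and 2, 2 and 2 in Fts, and the counts overlapped (difference −0.667, exact sign-flip p = 0.5, exact permutation p = 0.4). A coding region in exon 3 on chromosome 16, from 25811666 to 25812136, had a peak in every sample, with scores of 16.8, 50.1 and 89.0 in Fs1, Fs2 and Fs3 and of 12.1, 26.1 and 50.3 in Fts1, Fts2 and Fts3. Each Fts score was below the Fs score of its number, but the ranges overlapped, and scores are not scaled between samples.

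The other CARD6 peaks differed in position. A region of the 3′UTR scored 20.9, 18.8 and 27.3 in Fs1, Fs2 and Fs3, and Fts held no peak there. A coding region from 25815256 to 25816155 had a peak in Fts1 (12.4) and Fts2 (15.99), and Fts3 had a coding peak from 25816188 to 25816528 (22.1), a stretch that no Fs peak touched. Exon 2 had a peak in Fs1 (29.9) and Fs3 (3.59). Every sample thus also held a peak downstream of exon 4, in the 3′UTR in Fs and in the coding sequence in Fts, which the peak map shows.

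Regions like these were counted over all genes. Of 44 regions on apoptosis genes, 2, on the 3′UTR of BCL2 and of CARD6, had a peak in all 3 Fs and in no Fts sample, a pattern of 3.65% of the 26220 regions on all genes. None had a peak in all 3 Fts and no Fs sample, a pattern of 6.78% of all regions. Of the member regions, 22 were seen in 1 sample only (50%, beside 47.6% of all regions), and 1 was seen in all 6 (2.27%, beside 3.23%).

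The inhibitors of apoptosis carried 10 peaks in Fs and 12 in Fts. BIRC3, the gene of cIAP2, a ubiquitin ligase of tumour necrosis factor signalling, had 0, 1 and 1 peaks in Fs and 2, 1 and 1 in Fts, and the groups overlapped (difference 0.667, exact sign-flip p = 1, exact permutation p = 0.6). Its strong region on chromosome 9, from 33004264 to 33005485, had a score of 56.1 in Fs2 and none in Fs1 or Fs3, and scores of 85.8, 32.8 and 59.3 in Fts1, Fts2 and Fts3. These peaks overlapped the annotated 5′UTR exon by 15.6% to 33.8% of their length and ran on past its end, so that the difference was 0 when the midpoint of a peak had to lie in an exon. It was also 0 without the samples numbered 1. Weaker peaks lay in exon 1 in Fts1 (4.28) and in exon 7 in Fs3 (4.59).

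BIRC6, which encodes a giant ubiquitin ligase that binds caspases, had 3, 2 and 2 peaks in Fs and 0, 4 and 1 in Fts. Fts2 lay above and Fts1 and Fts3 below every Fs sample (difference −0.667, exact sign-flip p = 0.75, exact permutation p = 0.8), and without the samples numbered 1 the difference was 0.5. A peak on exon 41 of 78, from 107129977 to 107130130 on chromosome 3, scored 12.4, 13.7 and 3.72 in Fs1, Fs2 and Fs3 and 7.68 in Fts2, the only Fts sample that held it. A peak over the stop codon had scores of 4.16 in Fs2 and 20.1 in Fs3. XIAP, the most direct caspase inhibitor of the family, had a coding peak in Fs2 (3.67) and Fts2 (5.68), and BIRC5, the gene of survivin, had 2 peaks in Fts3 only (4.33 and 6.80).

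The caspases carried 3 peaks in Fs and 1 in Fts, by sample 0, 1 and 2 and 0, 0 and 1, which overlap. CASP6, an executioner, had a peak on exon 3 in Fs3 (3.98) and Fts3 (12.1). CASP8, the initiator of the receptor arm, had a 5′UTR peak in Fs3 (17.4), and CASP2 a peak over the start codon in Fs2 (9.74). None of these genes had a peak in more than 1 sample of a group.

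Among the genes of mitochondrial release and the apoptosome, APAF1, the scaffold that binds cytochrome c, had a peak on exon 4 of 27 in Fs1 (3.99) and Fs2 (6.19) and in no Fts sample. DIABLO, the gene of SMAC, which releases caspases from XIAP, had counts of 0, 0 and 0 in Fs and 0, 0 and 1 in Fts. That peak, in the 3′UTR on chromosome 14 from 30519058 to 30519770 in Fts3, had a score of 23.9, 1 of the 16 member peaks at or above 20, which lay on 5 genes.

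Death receptors and adaptors carried 5 peaks in each group. TRADD, the adaptor of TNFRSF1A, had 0, 0 and 1 peaks in Fs and 1, 1 and 1 in Fts, in the 3′UTR in Fs3 (10.02) and Fts3 (11.6) and near the start codon in Fts1 (5.33) and Fts2 (5.57) (difference 0.667, exact sign-flip p = 0.5). TNFRSF1A, a receptor of tumour necrosis factor, had a peak on exon 7 in Fs2 (18.8) and Fs3 (8.77), and Fts3 had 1 in the 3′UTR instead (6.09). FAS had 1 peak, in Fts3 (3.90). CFLAR, whose protein FLIP blocks CASP8 at the receptor, had a peak over the stop codon in Fs2 (10.4) and Fs3 (5.85) and none in Fts.

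For DNA fragmentation, DFFB encodes the nuclease and DFFA its inhibitor, which caspases cut. DFFA had a coding peak in Fs2 (6.13) and Fs3 (3.68) and DFFB in Fs1 (5.58), and neither had one in Fts, so each Fs sample had a peak on exactly 1 of the pair. MDM2, which encodes a ubiquitin ligase, had the same short peak on an exon outside its longest transcript in Fs2 (4.36), Fs3 (3.13), Fts1 (11.6) and Fts3 (4.60).

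Peaks on apoptosis genes mostly had low scores. Of the 81 peaks, 45 had a score under 10, a p-value above 0.1, and 7 on 3 genes, CARD6, BIRC3 and BCL2, had one of at least 50. The median score was 8.16, 10.4 and 8.77 in Fs1, Fs2 and Fs3 and 8.94, 6.23 and 6.68 in Fts1, Fts2 and Fts3, below the median of all peaks in every sample (10.7 to 11.9 in Fs, 12.9 to 15.9 in Fts). The groups overlapped for the apoptosis genes and did not for all peaks. The share of peaks with a score of at least 20 was 16.7% to 21.1% in Fs and 12.5% to 25.0% in Fts on apoptosis genes, against 32.5% to 35.5% and 38.2% to 44.9% for all peaks.

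**Figure D4:**
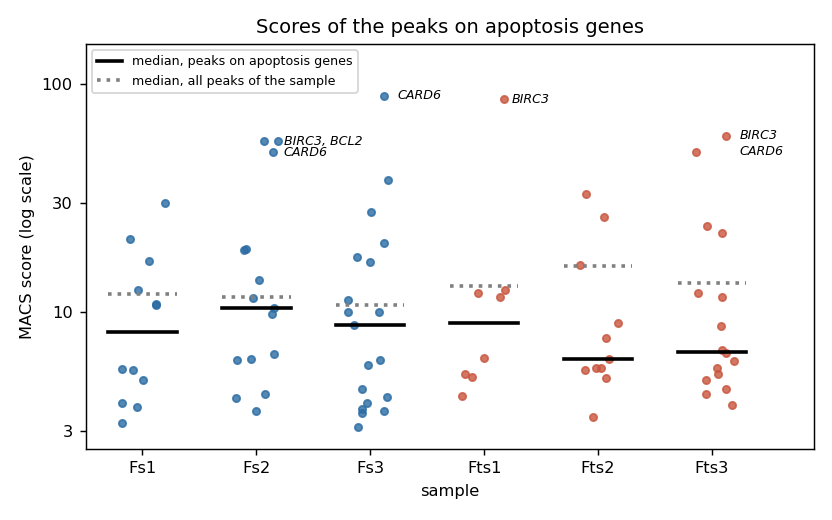
MACS score (log scale) of every peak on an apoptosis gene, by sample, with the median of these peaks (solid line) and of all peaks of the sample (dotted line). The solid line lies below the dotted line in all 6 samples, and the peaks with a score of at least 50 are named.

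By place on the mRNA, 24 peaks in Fs and 20 in Fts were coding, 3 and 2 in the 5′UTR, 1 and 2 at the start codon, 4 and 1 at the stop codon, 10 and 4 in the 3′UTR, and 4 and 6 outside the longest coding transcript. The coding share was 54.1% ± 18.5 in Fs and 57.4% ± 29.2 in Fts (SD, n = 3), a difference of 3.26 percentage points that is small beside the spread and turned to −2.78 when weaker peaks than a score of 20 were left out. The 3′UTR share was 25.0%, 20.0% and 21.1% in Fs and 0%, 0% and 25.0% in Fts, beside 7.55% to 8.24% and 6.45% to 6.62% for all peaks. The 10 Fs peaks lay on BCL2, CARD6, PMAIP1 and TRADD in all, and the 4 Fts peaks, on DIABLO, BIRC5, TNFRSF1A and TRADD, were all in Fts3. The PMAIP1 peaks had midpoints 115, 115 and 108 nt past the stop codon in Fs1, Fs2 and Fs3. That of Fts1 was at 93 nt, so the same region counted as stop codon there. Part of the difference in 3′UTR share thus rests on the class limit of 100 nt. Codon classes of 200 nt were run for the coding share only. A total of 62 peaks, or 76.5%, had an end within 10 bp of an exon end, and 23 had both ends there. This share was not counted over all peaks. The peaks were 51 to 1222 bp long, with a median of 341 bp.

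Other genes of cell death were read from a separate list of 71, of which 68 are annotated and 48, or 70.6%, had a peak. More peaks in Fts in all 3 pairs were found for 5 of them (7.35%, beside 6.11% of all genes) and fewer for 3 (4.41%, beside 3.89%), and the median difference was 0. ACIN1, which encodes a chromatin condensation factor, had 3, 2 and 1 peaks in Fs and 4, 7 and 4 in Fts, with highest scores of 40.9, 29.4 and 28.5 and of 278.1, 623.8 and 537.7. BNIP3L, a BH3-like gene of mitochondrial removal, had no peak in Fs and 1, 4 and 4 in Fts. DAP, PDCD10 and VDAC3 had peaks in each Fts and in no Fs sample. RIPK3, the kinase of necroptosis, had scores of 95.7, 23.2 and 33.7 in Fs and no peak in Fts, and CIDEB had 1 peak in each Fs and none in Fts. For each of these the groups did not overlap (exact permutation p = 0.1, the smallest possible). Over all genes, 5.09% did so with more peaks in Fts and 3.03% with fewer. The genes were picked for changing one way in all 3 pairs of the same counts, so this p-value lends them no support. TNF, the ligand of TNFRSF1A, had a peak in all 6 samples, with scores of 150.8, 178.8 and 402.9 in Fs and 223.1, 229.1 and 194.7 in Fts.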

How the data were processed

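MeRIP-seq was done on 12 libraries, 6 IP and 6 input. According to the study's methods, reads were trimmed with cutadapt 1.9.3 and aligned to susScr11 (Sscrofa11.1) with HISAT2, and MACS (version and threshold not given in the sources used here) called peaks in each IP sample against its input, which were then restricted to mRNAs. The authors deposited 1 list per IP sample with positions, strand and a MACS score, not scaled between samples. The score is read as 10 times −log10 of the p-value from the column heading of the study's table of the same peaks. The authors also deposited their own comparison of Fts with Fs by diffReps, with positions and a score made from its p-value, which was not used.

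All chromosomes and ends of the peaks lie within the Sscrofa11.1 sequences. With Python 3.11.15 and numpy 2.4.6, a peak was given to each gene of RefSeq annotation release 106 whose mRNA exons it overlapped by at least 1 bp on its strand. The place of a peak is that of its midpoint on the longest coding transcript, with codon classes reaching 100 nt to each side. Peaks that overlapped across samples formed a region. Counts per gene were compared with the exact two-sided sign-flip test over the 3 same-numbered pairs, after the paired design of the study's methods, and with the exact permutation test. The labels do not tie the samples of a group to single boars, so p-values measure the spread between these samples, which may be technical. On simulated data, the steps gave 400 of 400 planted peaks to their gene, as did bedtools 2.31.1, and called 200 of 200 planted gains, 100 of 100 losses and 0 of 15636 unchanged genes. The planted counts had no spread between samples, so these calls check the code only. They give no rate of missed or false calls for real counts.

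The genes, lists and tests were chosen with earlier results of these data known. Values in every sample are given for genes that changed one way in all pairs, genes with a peak in all samples, the 5 genes with the highest score, and BCL2L1 and CARD6. Sequences come from regions with a peak in all 3 samples of a group, and 1 such sequence and some genes are not reported here. The alternatives were minimum scores, the midpoint rule, either strand, peaks joined across junctions, equal list lengths, other codon classes, other background genes, no pairing, and samples left out.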

Additional observations from a re-analysis of the deposited data

How the results depend on the processing

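Of 134 values under alternatives, 113 did not turn direction and moved by less than the larger SD of the groups (counts: by no more than 1.5 times), 15 moved further and 6 turned direction. As the SDs are large, these include values far from the reported one: the difference in genes with a peak, −2.33 as reported, was −0.333 with a score of at least 20 or 50, and that in peaks, −3.67 as reported, was −0.667 and −0.333. The count of apoptosis genes with fewer peaks in Fts in all pairs, 1 as reported, was 0 with a score of at least 20 and 0 with a score of at least 50, and 2 to 4 with the samples of 1 number left out. The count with more peaks, 0 as reported, was 0 to 1 with the samples of 1 number left out. The regions found in all samples of 1 group and none of the other, 2 as reported, were 0 with a score of at least 20, 0 with a score of at least 50, and 5 to 8 with the samples of 1 number left out, where fewer samples have to hold a peak. Samples left out singly were added after seeing the data. With these and the numbers left out, the difference in genes with a peak ranged from −4.50 to −1, that in peaks from −5.83 to −1.83, and that in the coding share from −20.6 to 23.6 percentage points. The coding share turned to −20.6 without the samples numbered 2, to −13.5 without Fts2, to −3.80 without Fs2, to −0.114 without Fs3 and to −2.78 with a score of at least 20. The BIRC6 difference was 0.5 without the samples numbered 1 and ranged from −2 to 0.5 over the numbers left out. The cause was not tested. Joining peaks across exon junctions was not run for the coding share or the regions. Counting only the 11703 genes with a peak as background left the counts as they were.

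Same-numbered samples did not deviate together (correlations of −0.0144 to 0.0127 over genes, other pairs −0.0348 to 0.0250). As all pairs lay near 0, this cannot tell whether or not the numbers mark the same boar. With no replicate block, where every Fts sample has to lie below every Fs sample, the count with fewer peaks was 0 in place of 1, as Fts3 and Fs1 tie for BCL2, and the count with more peaks was 0.

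The peak files hold no read depth and the study's reads per library were not used here, 3 samples a group allow no single gene to pass 0.05, and most peaks on these genes are near the weak end of the lists, so a peak missing from a sample was not shown to be a lack of methylation.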
